A study of Mus with 16 samples.

Results

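The interleukin 1 (IL-1) receptor family and its ligands were followed in RNA sequencing of mouse B16 melanoma tumors. The 10 genes were taken as the rows of the count table that carry these gene symbols, out of 38087 genes in the table, and all 10 were found: the ligands Il1b, Il18 and Il33, the ligand-binding receptor chains Il1r1, Il1rl1, Il1rl2 and Il18r1, the accessory chain Il1rap, the decoy receptor Il1r2 and the receptor antagonist Il1rn.

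Cytokines of the IL-1 family bind a receptor chain of their own, which then recruits an accessory chain, and the paired chains signal through the adaptor MyD88 to NF-κB. IL-1β and IL-18 are made as precursors and cut by caspase-1 in inflammasomes, whereas IL-33 is held in the nucleus of barrier and stromal cells and released on damage. In tumors, macrophages and neutrophils are known sources of IL-1β, IL-18 acts on T cells and NK cells, and the IL-33 receptor ST2, encoded by Il1rl1, is carried by mast cells, type 2 innate lymphoid cells and some regulatory T cells.

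The study asked how B cells bear on the response of tumors to blockade of PD-L1, a ligand that restrains T cells. B16 melanoma cells were inoculated subcutaneously into C57BL/6 mice, which the study's methods give as females of 6 to 8 weeks, and grew for 7 days. The 16 libraries fall into 4 groups of 4 tumors: untreated tumors of WT and of B cell-depleted mice, and anti-PD-L1-treated tumors of WT and of B cell-depleted mice, with 3 antibody doses spaced 3 days apart and excision 3 days after the last. The day of excision of untreated tumors is not among the values used here, so whether they matched treated tumors in age is not known. The sources leave the method of B cell removal in these tumors unstated, since the labels write depleted while the table's columns carry an abbreviation for knockout and the methods describe more than one way. The series' design text also names an intratumoral injection of 3M-052 or control that no sample label carries. Libraries are named here by group and by the letter A to D of their column.

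Library totals ran from 12544573 to 35647409 reads. The deposited length of each of the 38087 genes equals its whole span, introns included. The counting program is not given. Counts are taken here to cover whole spans without regard to strand, so that a read in an overlap counts for both genes. Log2 CPM (CPM being the read count scaled to the total of the library) of libraries in the same group correlated across genes at 0.901 to 0.991, and the lowest values involved B cell-depleted untreated library B. That library also stood apart in its GC slope, the slope of log2 CPM on the GC content of genes per 10 percentage points, at -0.71 against -0.46 to 0.32 in the other 15. The summed level of 10 B cell markers overlapped between B cell-depleted and WT tumors, at 14.6 to 31.9 against 21.2 to 32.6 CPM without treatment and 26.3 to 40.5 against 17.8 to 26.9 CPM with it. Most of that sum came from Fcrla, so removal of B cells could not be read from these markers. The sum of 10 melanoma markers lay between 17784 and 25116 CPM in every library.

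The genes were read at low levels, which bounds every comparison that follows. Summed over the 16 libraries, Il1rap had 4749 reads, Il33 1112, Il18 772, Il1rn 711 and Il1r1 649. The rest were sparse, with 148 reads for Il18r1, 144 for Il1rl2, 89 for Il1r2, 87 for Il1b and 71 for Il1rl1. In 8 of 16 libraries Il1rl1 and in 8 of 16 Il1b had 3 reads or fewer, and 3 reads corresponded to 0.0842 to 0.239 CPM depending on the depth of the library. Per kilobase of gene span, the mean level was highest for Il18 at 0.274 CPM per kilobase, followed by Il1rn at 0.113, Il1rap at 0.0746 and Il33 at 0.0728. Lowest were Il1r2 at 0.00513 and Il1rl1 at 0.00462 CPM per kilobase. These are levels over spans that include introns, and they order the genes only roughly.

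On build mm10, 5 of the receptor genes sit side by side on the plus strand of chromosome 1. Il1r2 (ENSMUSG00000026073) spans 40084768 to 40125219, Il1r1 (ENSMUSG00000026072) spans 40225080 to 40316198, Il1rl2 (ENSMUSG00000070942) spans 40324627 to 40365471, Il1rl1 (ENSMUSG00000026069) spans 40429570 to 40465415, and Il18r1 (ENSMUSG00000026070) spans 40465552 to 40500854. Only 136 bases separate the end of Il1rl1 from the start of Il18r1, against 8428 to 99860 bases between the other neighbors. Il1rap (ENSMUSG00000022514) lies on chromosome 16 from 26581704 to 26730117, Il33 (ENSMUSG00000024810) on chromosome 19 from 29925114 to 29960718, Il18 (ENSMUSG00000039217) on chromosome 9 from 50575273 to 50581837, Il1b (ENSMUSG00000027398) on chromosome 2 from 129364570 to 129371139 on the minus strand, and Il1rn (ENSMUSG00000026981) on chromosome 2 from 24336853 to 24351494. Overlapping genes touch 10.6% of the Il1rap span, 18.9% of that of Il1b and 2.68% of that of Il1r2. RefSeq (GRCm38.p6) starts Il1rl1 at 40404864 and Il18 at 50554700, upstream of the deposited spans. If counts cover the deposited spans, reads from those stretches were not counted for these genes.

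**Figure D1:**
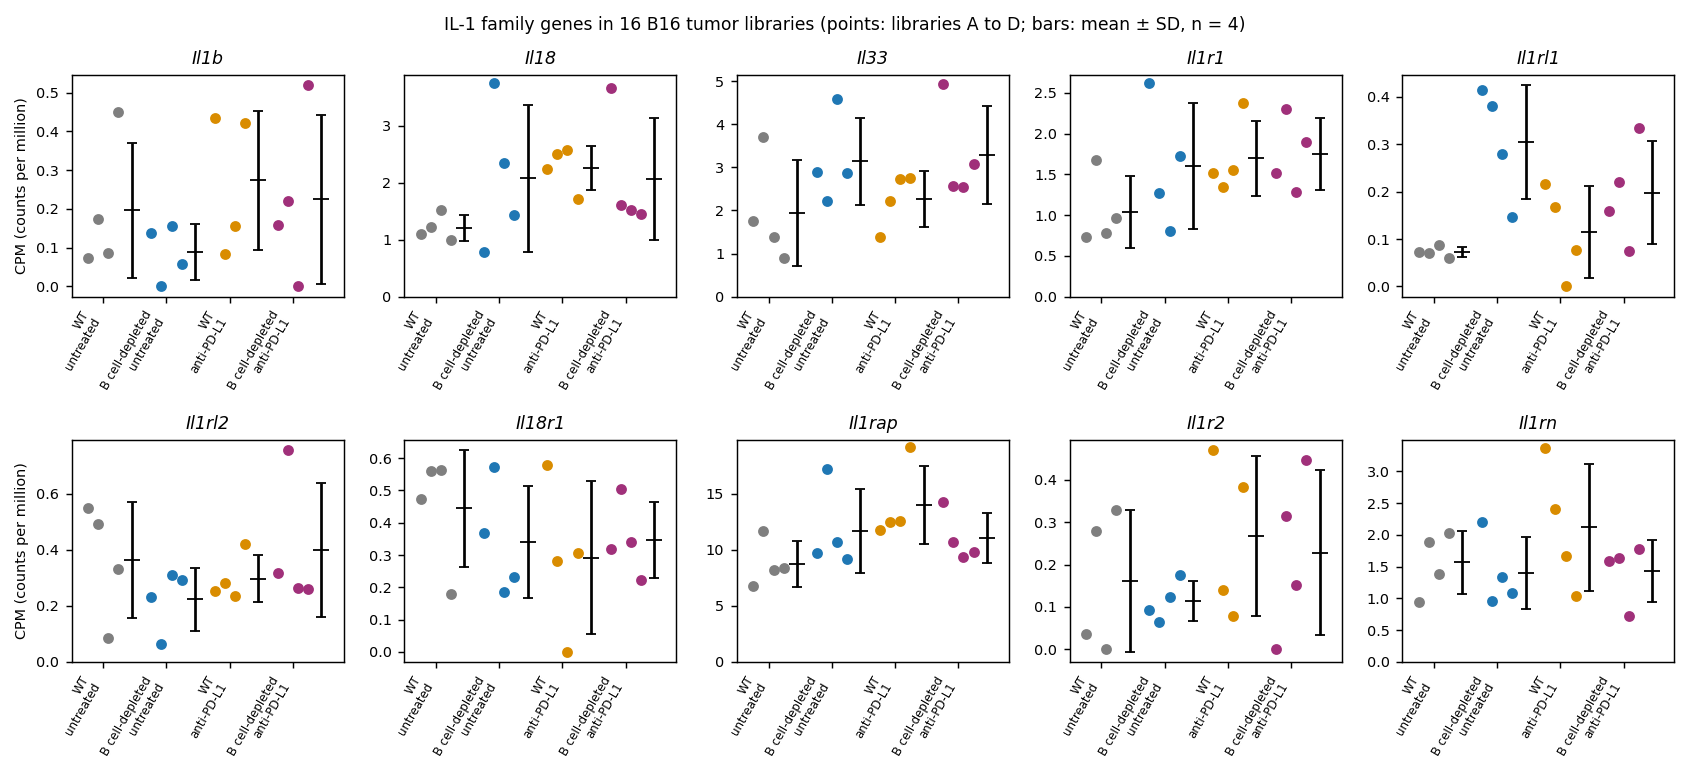
Level of each of the 10 genes in every library, in CPM (vertical axis), by group (horizontal axis); points are libraries A to D from left to right, and the horizontal mark with bars is the mean ± SD (n = 4). Groups overlapped for every gene except Il1rl1 in untreated tumors, and Il18 and Il1rap between WT untreated and WT anti-PD-L1 tumors.

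The groups overlapped for nearly all genes. In untreated tumors 1 of 10 genes (Il1rl1) separated B cell-depleted from WT tumors, and of all genes 12.6% of those tested and 4.83% of those below the filter did so in either direction. In treated tumors 0 of 10 did, against 21.3% and 4.35%. Between anti-PD-L1-treated and untreated tumors 2 of 10 (Il18 and Il1rap) separated in WT mice, against 32.5% and 3.84%, and 0 of 10 in B cell-depleted mice, against 4.8% and 2.74%.

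Across the 4 comparisons of 2 groups, none of the 8 genes that passed the count filter changed at an adjusted p under 0.05 (edgeR quasi-likelihood test, Benjamini-Hochberg over 19340 genes). In untreated tumors 0 of 8 genes were called between B cell-depleted and WT mice, against 0.889% of all genes tested. In anti-PD-L1-treated tumors 0 of 8 were called, against 0.698%. For anti-PD-L1 against untreated tumors 0 of 8 were called in WT mice, against 0.00517%, and 0 of 8 in B cell-depleted mice, against 0.0672%. At an unadjusted p under 0.05 the members gave 0, 0, 1 and 0 genes in the same order, against 19.2%, 25.0%, 26.4% and 10.4% of all genes. DESeq2 and limma voom likewise called 0 of these genes in each comparison. Over all genes, in the same order, DESeq2 called 5.12%, 7.72%, 8.05% and 1.71% and limma voom 1.17%, 0.377%, 0.103% and 0.0414%. Il1r2 and Il1rl1 fell below the filter and were compared by exact permutation.

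**Figure D2:**
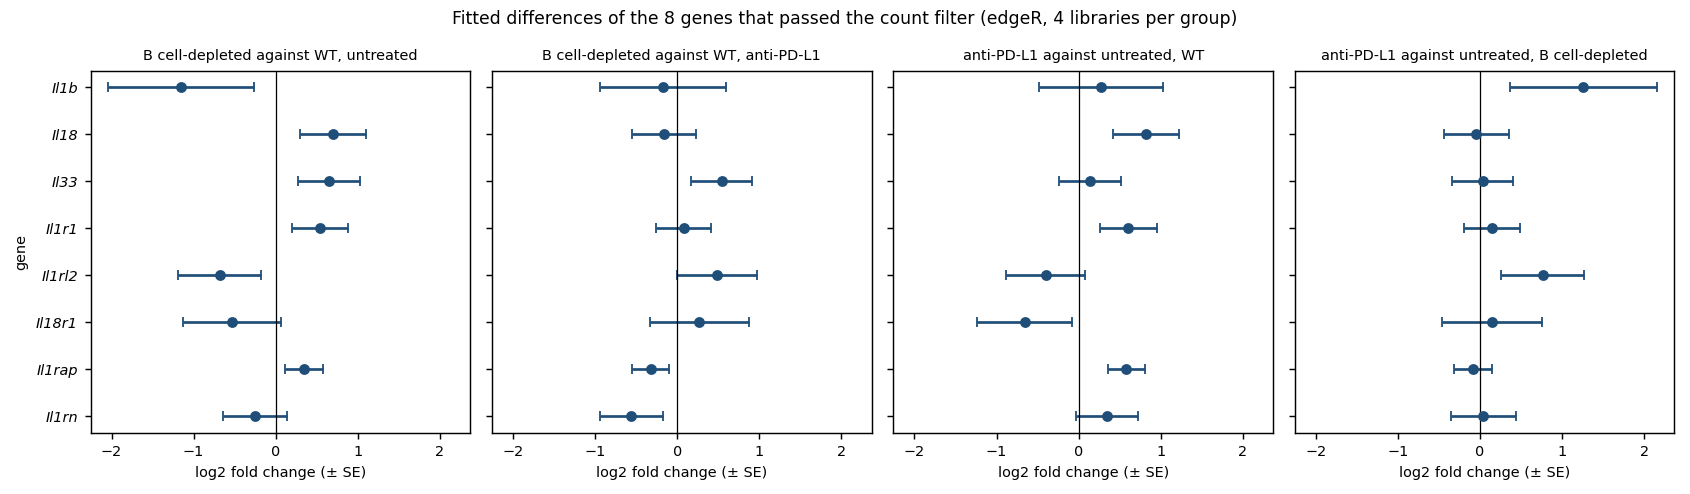
Fitted log2 fold changes with their SE (horizontal axis) for the 8 genes that passed the count filter (vertical axis), in the 4 comparisons named above the panels, from edgeR on 4 libraries per group. No gene passed an adjusted p of 0.05 in any panel; Il1b has the widest errors in each panel.

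Among the ligands, Il18, the interferon-γ-inducing cytokine, had its lowest mean in untreated WT tumors, at 1.21 ± 0.23 CPM (SD, n = 4). Its level was 1.10, 1.23, 1.52 and 0.989 CPM in WT untreated libraries A to D, and 2.24, 2.50, 2.57 and 1.72 CPM in WT anti-PD-L1 libraries A to D. It was 0.782, 3.75, 2.35 and 1.43 CPM in B cell-depleted untreated libraries and 3.67, 1.61, 1.51 and 1.45 CPM in B cell-depleted anti-PD-L1 libraries. Every treated WT tumor was above every untreated WT tumor, whereas both B cell-depleted groups were wide and overlapped all others. Il18 and Il1rap were the 2 of 8 tested genes higher without overlap in treated than in untreated WT tumors, a pattern seen in 20.3% of all genes tested. The fitted change of Il18 in WT mice was 0.82 ± 0.40 on the log2 scale (SE, n = 4 per group; edgeR adjusted p = 0.199), and in B cell-depleted mice it was -0.04 ± 0.40 (edgeR adjusted p = 0.977). Between B cell-depleted and WT tumors the log2 differences were 0.70 ± 0.40 without treatment and -0.16 ± 0.39 with it (edgeR adjusted p = 0.351 and 0.811), and the difference between these differences was -0.86 ± 0.56 (edgeR adjusted p = 0.302, with 7.62% of all genes called by this contrast). Without B cell-depleted untreated library B the untreated difference of Il18 was 0.30 and the difference between the differences -0.46, and over all libraries left out in turn the treated difference ran from -0.55 to -0.03. In bulk tumor, fewer cells of a type and less RNA per cell cannot be told apart, here or for any gene below.

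Il33, the nuclear alarmin that binds ST2, was measured in all 16 libraries with 30 to 148 reads each. It was at 1.75, 3.71, 1.39 and 0.899 CPM in WT untreated libraries A to D and at 2.90, 2.23, 4.59 and 2.86 CPM in B cell-depleted untreated libraries. With anti-PD-L1 it was at 1.38, 2.22, 2.72 and 2.76 CPM in WT libraries and at 4.94, 2.56, 2.54 and 3.09 CPM in B cell-depleted libraries. Most B cell-depleted tumors were above most WT tumors, but the groups overlapped at both treatments. The difference was 0.65 ± 0.37 on the log2 scale in untreated and 0.54 ± 0.37 in treated tumors (edgeR adjusted p = 0.354 and 0.361). Averaged over treatment it was 0.59 ± 0.26 with an unadjusted p of 0.0388, which did not pass after adjustment over all genes (edgeR adjusted p = 0.360), and 0.155% of all genes were called by this contrast. With anti-PD-L1 the level of Il33 differed by 0.14 ± 0.38 in WT and 0.03 ± 0.37 in B cell-depleted tumors (log2 scale).

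Il1b, the inflammasome-dependent cytokine that starts fever and neutrophil recruitment, was near the limit of detection in these tumors. Its read counts were 2, 5, 2 and 15 in WT untreated libraries A to D and 3, 0, 5 and 2 in B cell-depleted untreated libraries. With anti-PD-L1 they were 12, 3, 4 and 11 in WT and 2, 7, 0 and 14 in B cell-depleted libraries. Each group except the B cell-depleted untreated one held at least 1 library with more than 10 reads beside others with 4 or fewer, and all groups overlapped. The fitted log2 difference of B cell-depleted from WT untreated tumors was -1.16 ± 0.89 (edgeR adjusted p = 0.476) and was -0.31 without WT untreated library D. With anti-PD-L1 the fitted change was 0.28 ± 0.76 in WT mice and 1.26 ± 0.90 in B cell-depleted mice (edgeR adjusted p = 0.839 and 0.627), and the latter was 0.36 without B cell-depleted anti-PD-L1 library D. The antisense gene Gm14047, which overlaps 18.9% of the Il1b span, had 12 reads. If a read in an overlap counts for both genes, most of the 87 reads of Il1b lay outside the overlap.

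**Figure D3:**
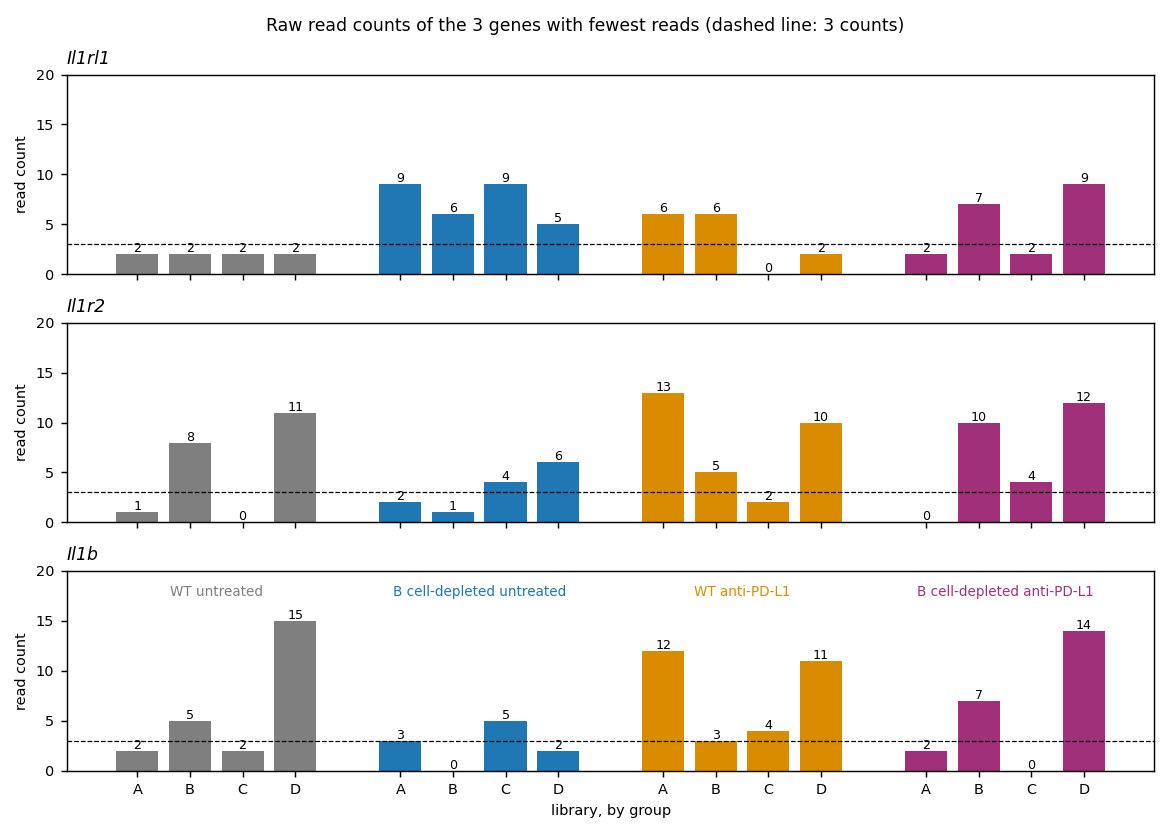
Raw read counts (vertical axis) of Il1rl1, Il1r2 and Il1b in libraries A to D of each group (horizontal axis); the dashed line marks 3 counts. Il1rl1 had 2 reads in each WT untreated library and 5 to 9 in each B cell-depleted untreated library, while counts of Il1r2 and Il1b ranged widely within groups.

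Of the receptors, Il1rl1, which encodes the IL-33 receptor ST2, was the only gene whose B cell-depleted and WT groups did not overlap in CPM. Its read counts were 2 in each of WT untreated libraries A to D and 9, 6, 9 and 5 in B cell-depleted untreated libraries. With anti-PD-L1 they were 6, 6, 0 and 2 in WT libraries and 2, 7, 2 and 9 in B cell-depleted libraries. In untreated tumors the lowest B cell-depleted library had more reads than any WT library, and in treated tumors the groups overlapped. In CPM the 4 untreated WT libraries lay between 0.0599 and 0.0866 and the 4 untreated B cell-depleted libraries between 0.146 and 0.414. The separation did not hold in the authors' normalized log2 values, where Il1rl1 was 0 in each WT untreated library. There it was 2.20, 3.05, 2.47 and 0 in B cell-depleted untreated libraries A to D, so library D equaled the WT libraries.

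Mean Il1rl1 was 0.305 ± 0.12 CPM in B cell-depleted and 0.0724 ± 0.011 CPM in WT untreated tumors (SD, n = 4 per group), and the exact permutation test, two-sided over 70 splits, gave p = 0.0286, the smallest it can give. This is 1 of 12 unadjusted exact tests on Il1rl1 and Il1r2, genes that were chosen with earlier results of these data known. Of 5362 genes below the filter with at least 15 reads in all, 2.93% were likewise higher without overlap in this comparison. From summed reads, 29 against 8 over total depths of 104033155 and 112372051 reads, the ratio was 3.92 with a 95% interval of 1.75 to 9.91 that covers counting error only. In treated tumors the means were 0.198 ± 0.11 and 0.116 ± 0.097 CPM (exact permutation p = 0.343), a ratio of 1.69 with an interval of 0.81 to 3.61. Averaged over treatment, with splits made within untreated and treated tumors, B cell-depleted tumors were higher by 0.157 CPM (exact permutation p = 0.0114). This average contains the untreated comparison and is not separate from it. The exact test was not run over all genes, and of the genes tested by edgeR 12.6% had an unadjusted p under 0.05 in the averaged comparison.

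When any 1 of the 4 WT untreated libraries was left out, the exact permutation p of the untreated comparison became 0.0571. The smallest p that 35 splits can give is 0.0286, and the difference was 0.228 to 0.237 CPM. When any 1 of the B cell-depleted untreated libraries was left out, p was 0.0286 at a difference of 0.196 to 0.286 CPM. The averaged p stayed between 0.0037 and 0.0261 over all 16 libraries left out in turn. When no filter was applied and Il1rl1 entered the edgeR fit over 31822 genes, its adjusted p was 0.212 in untreated tumors, 0.558 in treated tumors, 0.291 averaged and 0.532 for the difference between the differences. Anti-PD-L1 against untreated gave exact permutation p = 0.343 in WT mice and 0.229 in B cell-depleted mice.

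Marker lists of cells that carry ST2 were read in the same libraries. In untreated tumors the 10 mast cell markers summed to 1.98 to 3.73 CPM in B cell-depleted and 2.16 to 3.64 CPM in WT libraries. The 10 type 2 innate lymphoid cell markers summed to 65.5 to 103 CPM against 52.6 to 71.7 CPM, nearly all of it from Hpgds and Rora, which other cells also express; Gata3 had 121 reads over all libraries, Il5 14 and Il13 4. The 10 T cell markers summed to 25.5 to 30.9 CPM against 16.3 to 20.6 CPM, and did not overlap; Foxp3, whose whole span is overlapped by another gene, made up most of this, and the 9 T cell markers with little overlap gave 2.48 to 5.85 against 3.33 to 5.40 CPM. The part of these cells in the Il1rl1 values was not tested.

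Il1r1, the signaling receptor for IL-1α and IL-1β, had 18 to 73 reads per library. It was at 0.731, 1.68, 0.779 and 0.959 CPM in WT untreated libraries A to D and at 1.52, 1.35, 1.56 and 2.37 CPM in WT anti-PD-L1 libraries. It was at 2.62, 1.27, 0.806 and 1.72 CPM in B cell-depleted untreated libraries and at 1.51, 2.30, 1.29 and 1.90 CPM in B cell-depleted anti-PD-L1 libraries. Only WT untreated library B kept the untreated and treated WT groups from separating. The log2 change with anti-PD-L1 was 0.61 ± 0.34 in WT mice and 0.15 ± 0.34 in B cell-depleted mice (edgeR adjusted p = 0.258 and 0.887), and the B cell-depleted minus WT difference was 0.54 ± 0.35 untreated and 0.08 ± 0.34 treated (edgeR adjusted p = 0.401 and 0.895).

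Il1rl2, the receptor of the IL-36 cytokines, had few reads in most libraries. Its counts were 15, 14, 2 and 11 in WT untreated libraries A to D and 5, 1, 10 and 10 in B cell-depleted untreated libraries. With anti-PD-L1 they were 7, 10, 6 and 11 in WT and 4, 24, 7 and 7 in B cell-depleted libraries. All groups overlapped, and B cell-depleted anti-PD-L1 library B, at 0.758 CPM, was the highest of all 16. The B cell-depleted minus WT difference was -0.68 ± 0.50 untreated and 0.48 ± 0.49 treated on the log2 scale (edgeR adjusted p = 0.460 and 0.533), and the difference of these was 1.16 ± 0.70 (edgeR adjusted p = 0.261). The change with anti-PD-L1 was -0.40 ± 0.48 in WT mice and 0.76 ± 0.51 in B cell-depleted mice (edgeR adjusted p = 0.609 for each). Without B cell-depleted anti-PD-L1 library B the last of these was 0.23, the treated B cell difference -0.03 and the difference of differences 0.63.

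Il18r1, the ligand-binding chain of the IL-18 receptor, was similarly sparse. Its counts were 13, 16, 13 and 6 in WT untreated libraries A to D and 8, 9, 6 and 8 in B cell-depleted untreated libraries. With anti-PD-L1 they were 16, 10, 0 and 8 in WT and 4, 16, 9 and 6 in B cell-depleted libraries. The groups overlapped, and the single 0 was in WT anti-PD-L1 library C, where 3 reads would have been 0.117 CPM. Fitted differences of Il18r1 were -0.53 ± 0.59 and 0.27 ± 0.61 between B cell-depleted and WT tumors, untreated and treated, and -0.66 ± 0.58 with anti-PD-L1 in WT mice (log2 scale; edgeR adjusted p = 0.632, 0.793 and 0.476).

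Il1rap, the accessory chain shared by the receptors for IL-1, IL-33 and IL-36, was the most counted gene, with 179 to 501 reads per library. Its level was 6.76, 11.7, 8.18 and 8.36 CPM in WT untreated libraries A to D and 11.7, 12.5, 12.6 and 19.2 CPM in WT anti-PD-L1 libraries. It was 9.67, 17.2, 10.7 and 9.21 CPM in B cell-depleted untreated libraries and 14.3, 10.7, 9.35 and 9.82 CPM in B cell-depleted anti-PD-L1 libraries. Treated WT tumors were above untreated WT tumors, although the highest untreated and the lowest treated library nearly met, and the 2 B cell-depleted groups overlapped. The log2 change with anti-PD-L1 was 0.58 ± 0.23 in WT mice, with an unadjusted p of 0.0203 that did not pass after adjustment (edgeR adjusted p = 0.135), and -0.08 ± 0.23 in B cell-depleted mice (edgeR adjusted p = 0.905). The difference between B cell-depleted and WT tumors was 0.34 ± 0.23 untreated and -0.32 ± 0.23 treated (edgeR adjusted p = 0.417 and 0.366), and the difference of these was -0.67 ± 0.32 (edgeR adjusted p = 0.169). The untreated difference of Il1rap was 0.11 without B cell-depleted untreated library B, and the treated one -0.15 without WT anti-PD-L1 library D.

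Reads of Il1rap cannot all be assigned to it. The gene Gm20319 on the opposite strand (chromosome 16, 26714446 to 26755502) overlaps the end of Il1rap and extends beyond it, and had 2869 reads. If a read in an overlap counts for both genes, at most 60.4% of the 4749 Il1rap reads lay in the overlap, and at least 1880 lay outside. With all reads of Gm20319 taken off, a lower bound for the remainder of Il1rap, WT untreated libraries were at 3.14 to 4.56 CPM and WT anti-PD-L1 libraries at 3.73 to 6.12 CPM, and the groups overlapped.

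The levels of Il1rap and Il18 moved with the GC slope of the libraries. Over the 16 libraries Pearson's r of log2(CPM + 0.1) with the GC slope was -0.84 for Il1rap and -0.74 for Il18 (Spearman's rho -0.83 and -0.80), after removal of group means it was -0.79 and -0.70, and with the 2 most extreme slopes (farthest from their median) left out it was -0.69 and -0.80. For the other 8 genes it lay between -0.11 and 0.27. The slope is computed from the same libraries as the levels, and it was 0.142 to 0.249 in WT untreated and -0.460 to -0.0898 in WT anti-PD-L1 libraries, which do not overlap. With the GC slope as a covariate the fitted change with anti-PD-L1 in WT mice was 0.17 for Il18 and 0.12 for Il1rap on the log2 scale. Slope and antibody went together in WT mice, so this fit cannot divide the change between them. With only the 8 WT libraries in the fit, without that covariate, both genes were called (edgeR adjusted p = 0.0208 and 0.0360), as were 5441 of 18404 genes.

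**Figure D4:**
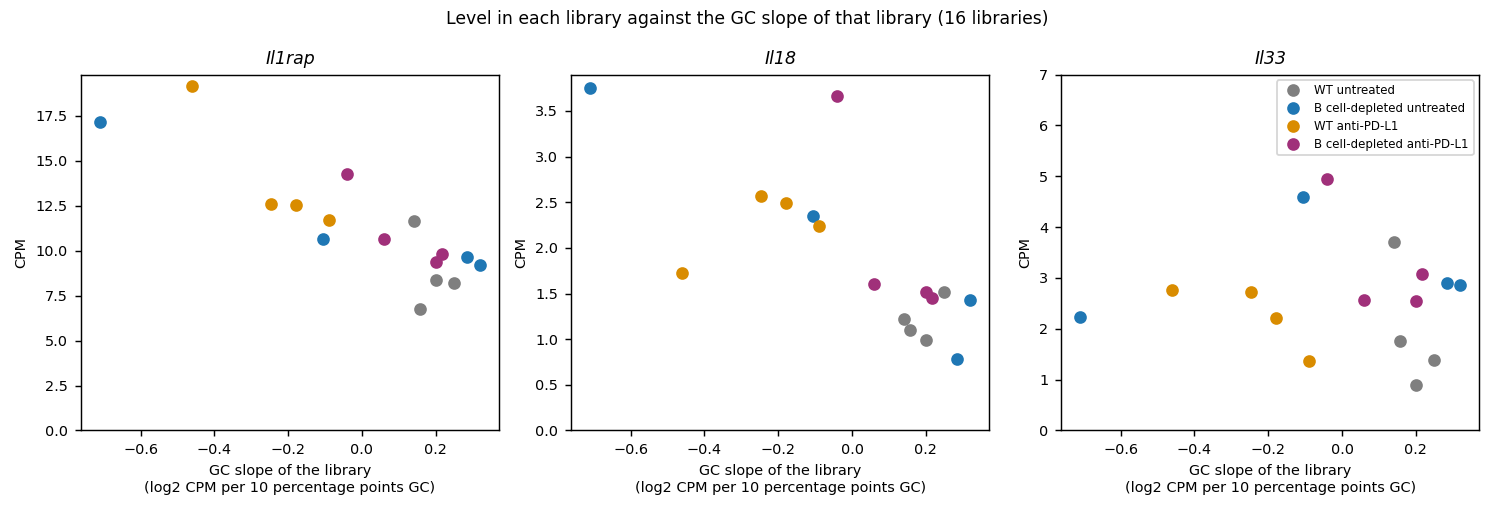
Level in CPM (vertical axis) of Il1rap, Il18 and, for contrast, Il33 in each of the 16 libraries against the GC slope of that library (horizontal axis, log2 CPM per 10 percentage points of GC content); colors mark the groups. Il1rap and Il18 were higher in libraries of lower slope, and WT anti-PD-L1 libraries all had lower slopes than WT untreated libraries; Il33 showed r = -0.11.

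Of the inhibitors, Il1r2, the decoy receptor that binds IL-1 without signaling, had 0 to 13 reads per library. Its counts were 1, 8, 0 and 11 in WT untreated libraries A to D and 2, 1, 4 and 6 in B cell-depleted untreated libraries. With anti-PD-L1 they were 13, 5, 2 and 10 in WT and 0, 10, 4 and 12 in B cell-depleted libraries. Libraries without reads and libraries with 10 or more stood side by side in 2 groups, and all groups overlapped. Exact permutation tests of mean CPM gave p = 0.571 for B cell-depleted against WT untreated tumors, 0.714 for treated tumors, 0.429 for anti-PD-L1 in WT mice and 0.343 in B cell-depleted mice.

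Il1rn, the secreted antagonist that occupies IL-1R1, had 15 to 93 reads per library. It was at 0.950, 1.89, 1.39 and 2.04 CPM in WT untreated libraries A to D and at 2.21, 0.954, 1.33 and 1.08 CPM in B cell-depleted untreated libraries. With anti-PD-L1 it was at 3.37, 2.41, 1.67 and 1.03 CPM in WT and at 1.59, 1.64, 0.719 and 1.79 CPM in B cell-depleted libraries. The widest spread was among treated WT tumors, and all groups overlapped. Fitted log2 differences of B cell-depleted from WT tumors were -0.25 ± 0.39 untreated and -0.56 ± 0.38 treated (edgeR adjusted p = 0.736 and 0.353), and the change with anti-PD-L1 was 0.35 ± 0.38 in WT mice (edgeR adjusted p = 0.564).

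Averaged over B cell status, anti-PD-L1 changed 0 of the 8 tested genes, against 0.0% of all genes, none of which was called by edgeR, DESeq2 or limma voom, while 824 of 19340 had an unadjusted edgeR p under 0.05. The averaged B cell comparison and the difference between the differences also called 0 of 8, against 0.155% and 7.62% of all genes. At an unadjusted p under 0.05 the 8 genes gave 1 (Il33) for B cells averaged over treatment, 0 for the difference between the differences and 0 for the averaged antibody comparison, against 12.6%, 30.8% and 4.26% of all genes.

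Among the 45 pairs of the 10 genes, 3 had a Pearson's r above 0.5 in either direction over the 16 libraries, on log2(CPM + 0.1). Il1rap and Il18 gave 0.67 (within groups 0.53), Il1b and Il1r2 gave 0.66 (within groups 0.64, and 0.78 without the 2 libraries farthest from the median of Il1r2), and Il1b and Il1rn gave 0.59 (within groups 0.55, and 0.36 without the 2 farthest from that of Il1b). Libraries share depth and tissue composition, and Il1b and Il1r2 rest on few reads, so these are descriptions. WT untreated library D, WT anti-PD-L1 libraries A and D and B cell-depleted anti-PD-L1 library D had the 4 highest counts of Il1b, at 11 to 15 reads, and 4 of the 5 highest of Il1r2, at 10 to 13. Of 100 pairs of a member and a cell type marker list, 12 had an r above 0.5 in either direction, with genes overlapped over 10% or more of their span left out of the lists. The highest was that of Il1rap with 8 type 2 innate lymphoid cell markers (r = 0.85, within groups 0.83), a sum made up mostly of Hpgds and Rora, and Il18 and Il33 gave 0.67 and 0.54 with it. Il18 gave 0.59 with 8 B cell markers (within groups 0.93), a sum made up mostly of Fcrla, from which B cells could not be read. With 10 endothelial markers Il18 gave -0.59 (within groups -0.86). When the 2 libraries most extreme in Il18 were left out, these were 0.39 and -0.25. Il1rn and Il1r1 gave 0.65 and 0.60 with 10 macrophage and monocyte markers, which ranged from 25.8 to 138 CPM over the libraries. Il1r1 and Il1r2 gave 0.57 and 0.53 with the endothelial markers, and Il1r2 gave 0.61 with 10 fibroblast markers. Il33 gave 0.56 with 9 neutrophil markers (within groups 0.38, and 0.71 without the 2 libraries most extreme in Il33). These 9 markers together summed to only 0.303 to 3.91 CPM over the libraries. Il1rap gave 0.54 with 10 melanoma markers (within groups 0.29, and 0.15 without the 2 libraries most extreme in Il1rap). The levels of Il1rap and Il18 also moved with the GC slope, as given above. The part of these cells in the values of the members was not tested.

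Lists of 65 other genes of the pathway, of which 44 passed the filter, held 0 genes called in any direction in each of the 4 comparisons of 2 groups, and at an unadjusted p under 0.05 they held 5 for B cells in untreated tumors, 7 for B cells in treated tumors, 7 for anti-PD-L1 in WT mice and 1 for anti-PD-L1 in B cell-depleted mice, against the 19.2%, 25.0%, 26.4% and 10.4% of all genes given above. Median log2 differences over all genes were 0.04, 0.03, -0.01 and -0.01 in these comparisons. Of 11 other ligands, receptors and inhibitors, 5 were tested, with medians of -0.01, 0.43, -0.40 and 0.14 in the same order. Il18bp, the soluble trap for IL-18, differed by 0.75 ± 0.39 between B cell-depleted and WT treated tumors (edgeR adjusted p = 0.232), and Il1rapl1, an accessory-like protein of neurons, by 0.60 ± 0.26 (edgeR adjusted p = 0.166). Without treatment Il1rapl1 gave -0.20 ± 0.25 and Sigirr, an inhibitory receptor of the family, -0.14 ± 0.26, and with anti-PD-L1 in WT mice Il1rapl1 gave -0.54 ± 0.25 and Il18bp -0.61 ± 0.38 (edgeR adjusted p = 0.680, 0.790, 0.190 and 0.305). The cytokine transcripts Il36a, Il36b and Il1f10 had 4, 2 and 1 reads over all libraries.

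All 17 genes of signaling from the shared cytoplasmic TIR domain were tested, with medians of 0.06 and -0.10 for B cells in untreated and treated tumors and of -0.02 and -0.10 for anti-PD-L1 in WT and B cell-depleted mice. The lowest p for B cells in untreated tumors belonged to Rela, the p65 subunit of NF-κB, at -0.33 ± 0.15, and Tab3, at 0.63 ± 0.33 (edgeR adjusted p = 0.238 and 0.302). In treated tumors it belonged to the receptor-proximal kinase gene Irak4 at -0.40 ± 0.14 and to Nfkb1 at 0.34 ± 0.12 (edgeR adjusted p = 0.116 and 0.124). With anti-PD-L1 in WT mice Rela gave -0.39 ± 0.15 and Irak4 0.34 ± 0.14 (edgeR adjusted p = 0.128 and 0.139).

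Of 11 genes that mature or release the cytokines, 10 were tested, with medians of 0.23, -0.25, 0.07 and -0.33 in that order. Aim2, a DNA sensor that assembles an inflammasome, differed by 0.80 ± 0.40 in untreated and 1.10 ± 0.42 in treated tumors between B cell-depleted and WT mice (edgeR adjusted p = 0.286 and 0.133). Gsdmd, the pore through which mature IL-1β leaves the cell, differed by -0.69 ± 0.32 in untreated tumors (edgeR adjusted p = 0.255), and the inflammasome adaptor gene Pycard by -0.35 ± 0.16 in treated tumors (edgeR adjusted p = 0.190). With anti-PD-L1 in WT mice Gsdmd gave -0.68 ± 0.32 and Casp8 0.17 ± 0.12 (edgeR adjusted p = 0.186 and 0.370).

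Of 16 genes known to respond to IL-1, 9 were tested, with medians of 0.12, 0.43, -0.26 and -0.02. Il6 differed by 2.34 ± 0.62 between B cell-depleted and WT untreated tumors, from 108 reads in all libraries, and by 1.38 ± 0.65 in treated tumors (edgeR adjusted p = 0.0755 and 0.199). The acute-phase gene Saa3 differed by -1.17 ± 0.38 in untreated tumors (edgeR adjusted p = 0.127) and the adhesion gene Icam1 by 0.71 ± 0.36 in treated tumors (edgeR adjusted p = 0.224). With anti-PD-L1 in WT mice Saa3 gave -1.21 ± 0.38 and Ccl2, whose whole span is overlapped by another gene, 0.97 ± 0.29 (edgeR adjusted p = 0.0942 and 0.0911).

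Of 10 genes induced downstream of IL-33 in type 2 responses, only Arg1, Ccl22 and Il4 passed the filter, with medians of -0.56, 0.11, -0.49 and -0.06. Ccl22, a chemokine that draws regulatory T cells, differed by -1.56 ± 0.81 in untreated and 1.05 ± 0.76 in treated tumors between B cell-depleted and WT mice (edgeR adjusted p = 0.298 and 0.386), and Il4 by 0.32 ± 0.20 and 0.11 ± 0.20 (edgeR adjusted p = 0.395 and 0.750). With anti-PD-L1 in WT mice Ccl22 gave -1.11 ± 0.75 and Arg1 -0.49 ± 0.56 (edgeR adjusted p = 0.347 and 0.591).

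With anti-PD-L1 in B cell-depleted mice the lowest p over the 5 lists was that of Pycard, at -0.44 ± 0.16 (edgeR adjusted p = 0.324), beside -0.84 ± 0.45 for Casp1, the protease that cuts IL-1β and IL-18. The genes of lowest p in the other lists were Irak4 at -0.27 ± 0.14, Nfkb1 at 0.23 ± 0.12, Il6 at -0.89 ± 0.55, Nfkbiz at -0.41 ± 0.26, Ccl22 at 1.50 ± 0.82, Il4 at -0.12 ± 0.20, Il1rapl1 at 0.26 ± 0.26 and Sigirr at 0.17 ± 0.26, none of which passed (edgeR adjusted p from 0.505 to 0.843).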

How the data were processed

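Total RNA of B16 tumors was depleted of ribosomal RNA, made into libraries with an Ion Total RNA-Seq kit and aligned by a service company to mm10; which aligner and counting program were used is not given in the sources used here. Raw read counts per gene span were deposited by the authors, with the GC content in percent and the length of each span per the file headers. A second table deposited by the authors gives normalized log2 values, with DESeq named in the submitters' processing notes, and shifted to a median of 0 per gene; it served as an alternative only. Sheets with the authors' fold changes, p-values and enrichments were not used, nor were 32 further columns of per-library values (coverage and the like).

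Column names carry the group and a letter, so libraries were assigned to groups and not to single samples. The series gives 4 mice per group, so libraries were treated as separate animals. Libraries of one group differed by more than counting noise (chi-square per degree of freedom 13.7 or more for every pair).

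Counts were filtered with filterByExpr (minimum count 10, minimum total 15), scaled by TMM and fitted with edgeR 4.0.16 (R 4.3.3) by the robust quasi-likelihood test in 1 model of the 4 groups, with p adjusted over all 19340 genes. Members below the filter were tested by two-sided exact permutation of mean CPM on raw library totals (70 splits, or 4900 within strata), unadjusted. The fit was tested on simulated data. Alternatives were DESeq2 size factors and raw totals for scaling, no filter or at least 1 CPM in 4 libraries, DESeq2 1.42.0, limma 3.58.1 (voom, and on the authors' log2 values), a fit on only the groups compared, the GC slope as a covariate, and each library left out. The GC slope used genes with a mean CPM of 1 or more. For exact tests the alternatives were log2(CPM + 0.1) and TMM-scaled totals. Counting intervals are exact (Clopper-Pearson).

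The 10 genes and all lists were chosen with earlier results of these data known. All 10 are described in every library; of 5 pathway lists, each gene with an adjusted p under 0.05 in a comparison is named and, if none passed, the 2 with the lowest p. IDs were matched to RefSeq names for all 10 genes. Figures were drawn with matplotlib.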

Additional observations from a re-analysis of the deposited data

Results flagged for a closer look

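Within each group of 4 libraries, the highest and lowest level of each of the 10 genes was set against the gap to its nearest neighbor (Dixon's criterion at 95%). Of 40 gene and group combinations, 3 had 1 library that far from the other 3, and chance alone flags about 1 in 20. Il1rl2 was at 0.758 CPM in B cell-depleted anti-PD-L1 library B, from 24 reads, with the other 3 between 0.260 and 0.319 CPM. Il1rap was at 19.2 CPM in WT anti-PD-L1 library D, with the other 3 between 11.7 and 12.6 CPM. Il18 was at 3.67 CPM in B cell-depleted anti-PD-L1 library A, with the other 3 between 1.45 and 1.61 CPM. None of the 8 genes tested passed the edgeR test of the difference between the B cell differences in treated and untreated tumors. Of all genes tested, 7.62% passed it.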

How the results depend on the processing

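No paired analysis was possible because the columns carry letters and not the replicate numbers of the labels. For anti-PD-L1 in WT mice the number of the 10 genes called was 0. With only the groups compared it was 2 (Il18 and Il1rap), where 5441 of 18404 genes were called. With each library left out it was 0 to 1. The call of Il1rap came without B cell-depleted untreated library B, where 4123 of 19637 genes were called. The other counts were 0 under every alternative run. The Il1rl1 difference in untreated tumors was 0.196 to 0.286 CPM with each library left out, but in the authors' log2 values the untreated groups met at 0. Log2 changes that turned in sign were all short of the threshold. With the GC slope as covariate, in treated tumors between B cell-depleted and WT mice Il18 became 0.32, Il1r1 -0.075 and Il1rap 0.046; with anti-PD-L1 in WT mice Il33 became -0.014; the difference of differences of Il18 became 0.14. In the authors' log2 values Il18r1 became -0.21 in treated and 0.17 in untreated tumors between B cell-depleted and WT mice, and 0.43 with anti-PD-L1 in WT mice. Those values were 0 in every WT untreated library, although each had 6 to 16 reads. They were above 0 only in B cell-depleted untreated library C (0.69), WT anti-PD-L1 libraries A and D (0.85 and 0.87) and B cell-depleted anti-PD-L1 library B (0.88). With each library left out, the comparison in treated tumors ran from -0.041 to 0.28 for Il1r1, -0.033 to 0.68 for Il1rl2, -0.10 to 0.84 for Il18r1 and -1.07 to 0.25 for Il1b, and that of anti-PD-L1 in WT mice from -0.060 to 1.13 for Il1b and -0.10 to 0.65 for Il33. The Il1r2 difference ran from -0.112 to 0.0366 CPM in treated and -0.102 to 0.00800 CPM in untreated tumors. Depth limits Il1rl1, Il1r2 and Il1b most.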
